A study of Mus musculus with 3 samples.

Results

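The nuclear-encoded subunits of the mitochondrial respiratory chain were described in muscle of swimming and nonswimming mice. They were chosen by gene name alone: every array probe whose name is that of an Nduf a, b, c, s or v gene, an Sdh gene, a Uqcr gene, a Cox4 to Cox8 gene or an Atp5 gene. The rule took 107 of 41169 probes and 79 of 27665 genes. Of these genes, 77 encode subunits: 35 of complex I, 4 of complex II, 6 of complex III, 17 of complex IV and 15 of complex V. The other 2, Cox4nb and Atp5s, share the names but are no subunits, and RefSeq lists them as Emc8 and Dmac2l. Ndufa4 is counted in complex I by its name, although its protein is now assigned to complex IV.

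The 3 groups were male mice, 6 weeks old, studied after 14 days. One group swam and ate food with 0.5% Chlorella powder, a second swam and ate normal food, and the third did not swim and ate normal food. Chlorella is a unicellular green alga sold as a food supplement. Muscle RNA of the 10 mice of each group was pooled and measured on 1 one-colour Agilent array, so no group has a replicate, no test between groups was possible, and a pool gives no spread between mice. The strain, the muscle taken and the swimming schedule are not given in the sources used here.

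The respiratory chain passes electrons from NADH and succinate to oxygen and uses the energy to pump protons across the inner mitochondrial membrane. Complex I takes electrons from NADH, complex II from succinate, complex III hands them to cytochrome c, complex IV (cytochrome c oxidase) reduces oxygen, and complex V (ATP synthase) lets the protons back and makes ATP. A few catalytic subunits are encoded by mitochondrial DNA and all others by nuclear genes. Oxidative muscle fibres hold more of these complexes than glycolytic ones, and endurance training is known to raise them. Several cytochrome c oxidase subunits exist as a form made in most tissues and a form made mainly in heart and skeletal muscle.

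Levels are scaled signals, the scanner's processed signal of a spot divided by the 75th percentile of that array, which was 237.8 intensity units with Chlorella, 295.0 in swimming mice on normal food and 285.9 in nonswimming mice. Differences are log2 ratios of scaled signals. The error after ± combines the errors that the scanner software assigns to both signals, with a median of 0.20 over these genes. The software put the error at or near 10% of the signal for nearly all of them. It is thus almost the same for each gene and is not a spread measured gene by gene. A ratio for swimming is that of swimming against nonswimming mice on normal food, a ratio for Chlorella is that of Chlorella against normal food in swimming mice, and a ratio for both is that of Chlorella-fed swimming mice against nonswimming mice on normal food. A level depends on its probe, so levels were compared between arrays and not between genes. The transcripts were among the brightest on the arrays: their median rank was the 99.4th percentile of all probes on the Chlorella array and the 99.3rd on each of the other 2. No spot was saturated. In all, 77 of the 79 genes were well above background on every array, 75 of them subunits. Medians and counts of the set below cover these 77, Cox4nb and Atp5s among them. Cox8c, an isoform of testis, was not well above background on any array. Cox4i2, an isoform of lung, was well above background on the Chlorella array alone, at a scaled signal of 0.058. Its signals of 0.0187 on the swimming array with normal food and 0.0135 on the nonswimming array were not well above background. No ratio is given for it.

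The labelled tissue was set against marker genes. All 11 muscle fibre genes were well above background on each array, with summed scaled signals of 5460 on the Chlorella array, 4199 on the swimming array with normal food and 4939 on the nonswimming array. Markers of other cells also moved between the pools. All 8 adipocyte genes summed to 480.3 with Chlorella, 767 on the swimming array with normal food and 395 on the nonswimming array. The 8 neutrophil genes summed to 3.44 with Chlorella (7 of them well above background), 274 on the swimming array with normal food (8) and 16.1 on the nonswimming array (8). The 6 erythroid genes summed to 130.3 with Chlorella (4 well above background), 440.5 on the swimming array with normal food (6) and 127.5 on the nonswimming array (5). For these 3 cell types the swimming array with normal food was the high one. The 6 keratinocyte genes summed to 2.16 with Chlorella (4 well above background), 1.87 on the swimming array with normal food (4) and 7.66 on the nonswimming array (5), Krt1 on none. The 8 heart genes summed to 31.0 with Chlorella (5 well above background), 30.5 on the swimming array with normal food (4) and 15.2 on the nonswimming array (4), and Nppa, Myl7 and Ryr2 were above it on none. Brown adipocyte genes were all 9 above background and summed to 721 with Chlorella, 616 on the swimming array with normal food and 529.9 on the nonswimming array, a list that includes Cox7a1 and Cox8b. Without these 2 genes the other 7 summed to 78.6 with Chlorella, 102 on the swimming array with normal food and 54.3 on the nonswimming array. This sum was highest on the swimming array with normal food mainly through Cidea and Ucp1. Cidea had 24.9 with Chlorella, 48.7 on the swimming array with normal food and 6.99 on the nonswimming array. The most specific marker of brown adipocytes, Ucp1, had 2.51 with Chlorella, 16.2 on the swimming array with normal food and 0.851 on the nonswimming array. Elovl3 was also highest on the swimming array with normal food, while Dio2, Prdm16, Ppargc1a and Cpt1b were lowest on it. Cpt1b had 43.3 with Chlorella, 31.5 on the swimming array with normal food and 39.9 on the nonswimming array. It thus held most of the sum of the 7 genes on the Chlorella and nonswimming arrays. The part of these cells in the ratios below was not tested. In pooled tissue RNA, fewer cells of a type and less RNA per cell cannot be told apart.

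In swimming against nonswimming mice on normal food, the respiratory chain genes as a set sat where all genes sat. Their median log2 ratio was -0.04, the same as the -0.04 over all 15671 genes measured on both arrays, and 37 of 77 lay above the median of all genes. At 1.5-fold, 2 genes were higher with swimming, Cox6a1 and Cox8a, against 9.35% of all genes, and 3 were lower, Ndufa8, Cox7a2l and Atp5a1, against 4.4% of all genes. At 2-fold there was none in either direction, against 5.15% higher and 1.07% lower among all genes. At a smaller ratio of 0.32 on the log2 scale, not far above the scanner error, 6 were higher and 11 lower, against 16.3% and 14.4%. The place of the set among all genes depended on the processing. Quantile normalization gave a median of 0.04 for the set and -0.05 for all genes, with 50 of 77 genes above the latter. Without a filter on dim probes the medians were -0.04 for the set and -0.14 for all genes, with 55 of 79 genes above the latter.

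In Chlorella against normal food, both swimming, most of the set was slightly higher with the 75th percentile scaling. The median was 0.28, against 0.08 over all 15514 genes, and 69 of 77 genes lay above the median of all genes. The middle 50% of the genes lay between 0.20 and 0.33, a narrow band beside the -0.16 to 0.27 of all genes. No gene reached 1.5-fold in either direction, where 5.89% of all genes were higher and 9.17% lower. At 2-fold the shares of all genes were 1.37% and 4.86%. Past 0.32 on the log2 scale 24 were higher and 5 lower, against 19.3% and 15.7%. Cox4nb, which is no subunit, was among the 5, at -0.37. Of the 75 measured subunits 24 were higher and 4 lower. The size of the shift depended on the normalization: quantile normalization gave a median of 0.09 for the set and 0.05 for all genes, with 49 of 77 genes above the median of all genes, and cyclic loess gave 0.08 and -0.01, with 62 of 77 above it.

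In Chlorella-fed swimming against nonswimming mice, the median was 0.22, against 0.04 over all 15342 genes, and 58 of 77 genes lay above the median of all genes. At 1.5-fold 4 genes were higher, Cox8b, Atp5e, Atp5l and Ndufa2, against 6.63% of all genes, and 2 were lower, Ndufb5 and Cox7a2l, against 5.76%. None reached 2-fold, against 2.07% higher and 1.49% lower among all genes. Past 0.32 on the log2 scale 26 were higher and 4 lower, against 18.4% and 14.9%. Each of the 3 arrays serves in 2 comparisons, and the ratios of this last comparison are the sums of those of the other 2, so the comparisons are not independent.

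**Figure D1:**
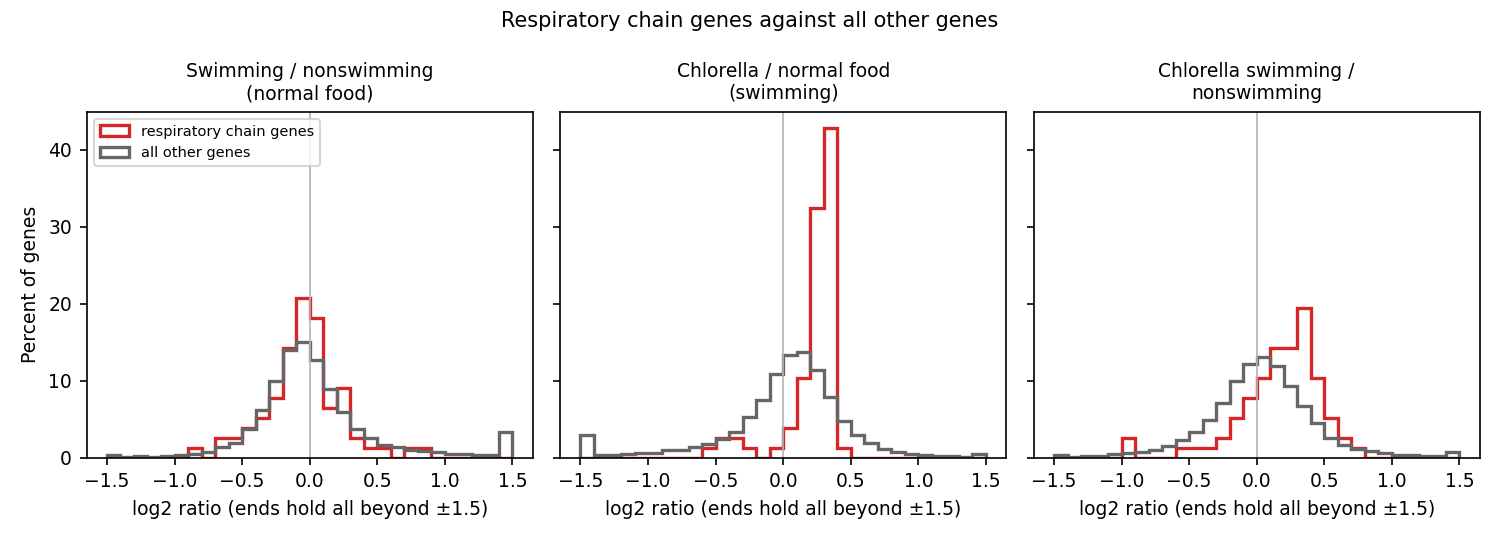
Share of genes (y axis, percent) in bins of the log2 ratio of scaled signal (x axis) for the 77 measured respiratory chain genes (red) and all other genes (grey) in each comparison. The red distribution centres at -0.04 in swimming against nonswimming, and in Chlorella against normal food it is narrow and centres at 0.28, against 0.08 for all genes.

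Cytochrome c oxidase, complex IV, held the widest range from its lowest to its highest gene in each comparison. Its 15 measured genes had a median of 0.04 in swimming against nonswimming (range -0.63 to 0.85), 0.28 in Chlorella against normal food (range -0.56 to 0.39) and 0.32 in Chlorella-fed swimming against nonswimming (range -0.91 to 0.74). The genes at the ends of these ranges were all members of isoform sets.

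Cox6a1, the form of subunit VIa made in most tissues, had a scaled signal of 127 on the Chlorella array, 175 on the swimming array with normal food and 97.0 on the nonswimming array. The swimming array with normal food stood above both others. The log2 ratio was 0.85 ± 0.20 in swimming against nonswimming, -0.46 ± 0.20 in Chlorella against normal food, and 0.38 ± 0.20 in Chlorella-fed swimming against nonswimming. Its partner Cox6a2, the heart and skeletal muscle form, had 446 on the Chlorella array, 341 on the swimming array with normal food and 357 on the nonswimming array. Here the Chlorella array was the high one, with ratios of -0.07 for swimming, 0.39 for Chlorella and 0.32 for both. The difference between the partners (Cox6a1 minus Cox6a2) was 0.91 ± 0.29 in swimming against nonswimming, -0.85 ± 0.29 in Chlorella against normal food and 0.06 ± 0.29 in Chlorella-fed swimming against nonswimming.

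Cox8a and Cox8b, the common and the muscle form of the small subunit VIII, parted in Chlorella against normal food, as did Cox6a1 and Cox6a2. Cox8a had 26.1 on the Chlorella array, 38.4 on the swimming array with normal food and 23.0 on the nonswimming array, with ratios of 0.74 in swimming against nonswimming, -0.56 in Chlorella against normal food and 0.18 in Chlorella-fed swimming against nonswimming. Like Cox6a1, it was highest in swimming mice on normal food. Cox8b had 252 on the Chlorella array, 208 on the swimming array with normal food and 151 on the nonswimming array, with ratios of 0.46 for swimming, 0.28 for Chlorella and 0.74 for both. Both swimming arrays were thus above the nonswimming one for Cox8b, the Chlorella array most. Cox8a minus Cox8b was 0.28 ± 0.29 in swimming against nonswimming, -0.84 ± 0.29 in Chlorella against normal food and -0.56 ± 0.29 in Chlorella-fed swimming against nonswimming. Besides Cox6a1 and Cox8a, the adipocyte, neutrophil and erythroid sums given above were highest on the swimming array with normal food.

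The subunit VIIa pair differed less. Cox7a2, the common form, had 76.9 on the Chlorella array, 66.9 on the swimming array with normal food and 57.4 on the nonswimming array. Cox7a1, the muscle form, had 390.3 on the Chlorella array, 307 on the swimming array with normal food and 325 on the nonswimming array. Cox7a2 minus Cox7a1 was 0.30 ± 0.29 for swimming, -0.15 ± 0.29 for Chlorella and 0.16 ± 0.29 for both, within or close to the scanner error. Their relative Cox7a2l, a protein that joins complex IV to complex III in supercomplexes, went the other way: 9.54 on the Chlorella array, 11.5 on the swimming array with normal food and 17.9 on the nonswimming array. Its ratios were -0.63 in swimming against nonswimming, -0.27 in Chlorella against normal food and -0.91 in Chlorella-fed swimming against nonswimming, so both swimming arrays were below the nonswimming one.

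**Figure D2:**
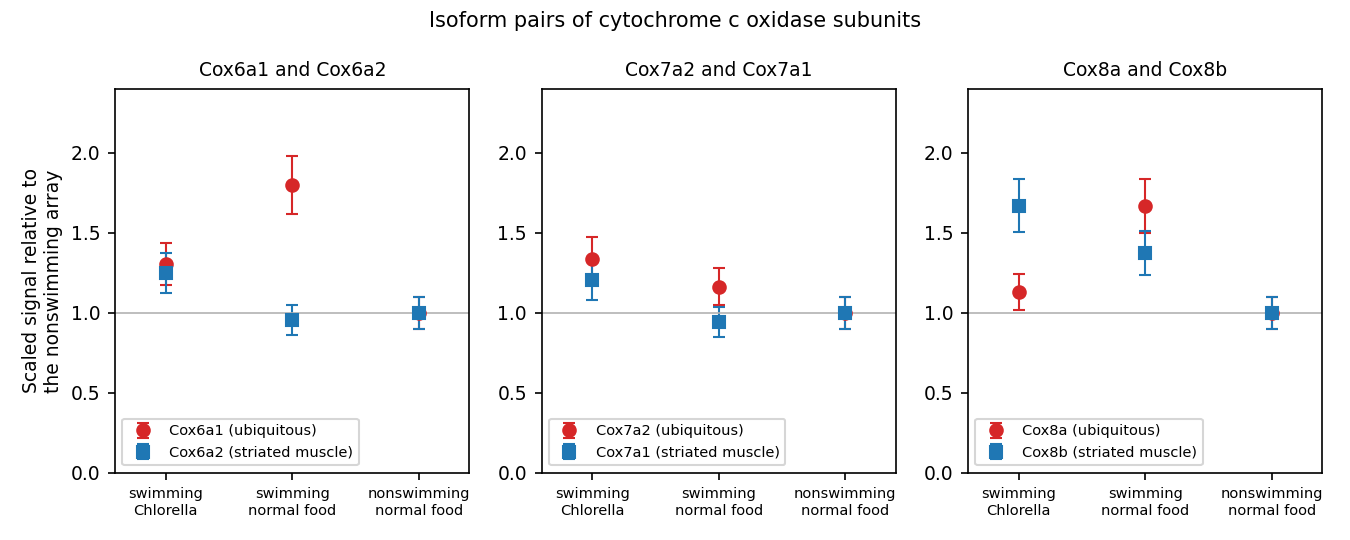
Scaled signal relative to the nonswimming array (y axis, ratio) on the 3 arrays (x axis) for 3 isoform pairs, the common form in red and the striated muscle form in blue; bars are the error that the scanner software assigns to a signal. Cox6a1 (175 on the swimming array with normal food, 97.0 on the nonswimming array) and Cox8a stand highest on the swimming array with normal food, Cox6a2 and Cox8b on the Chlorella array.

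Of the other isoforms of complex IV, Cox4i1 and Cox6b1 kept near the median of the set. Cox4i1, the main form of the regulatory subunit IV, had 399.6 on the Chlorella array, 329.6 on the swimming array with normal food and 334 on the nonswimming array, with ratios of -0.02 for swimming, 0.28 for Chlorella and 0.26 for both. Cox6b1, the common form of subunit VIb, had 9.07 on the Chlorella array, 7.74 on the swimming array with normal food and 8.16 on the nonswimming array and ratios of -0.08 for swimming, 0.23 for Chlorella and 0.15 for both. Cox6b2, its testis form, was dim in muscle at 0.177 with Chlorella, 0.231 on the swimming array with normal food and 0.157 on the nonswimming array, with ratios of 0.56 for swimming, -0.38 for Chlorella and 0.17 for both. With another background correction (normexp) the ratio of Cox6b2 was 0.20 for swimming and -0.10 for Chlorella. Cox7b, a small subunit, had 79.3 on the Chlorella array, 65.1 on the swimming array with normal food and 56.4 on the nonswimming array and ratios of 0.21 for swimming, 0.28 for Chlorella and 0.49 for both.

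The promoters of Cox6a1, Cox8a and Cox8b are shown because they belong to the pairs whose common and muscle forms differed in their ratios. That of Cox7a1 is shown as a further muscle form, although its pair differed within or close to the scanner error. Cox6a2 had no promoter entry and is not shown. The 4 were picked after the values were seen. Each runs 5′ to 3′ on the gene's strand from 250 bases before the start to 50 after it, from RefSeq on GRCm38.p6: Cox6a1 at chr5:115348909-115349208 on the minus strand, Cox8a at chr19:7217567-7217866 on the minus strand, Cox7a1 at chr7:30183921-30184220 on the plus strand and Cox8b at chr7:140900397-140900696 on the minus strand. Capitals mark matches to CGCANGCG (the centre of the NRF-1 site), CGGAAG or its complement (the core of ETS sites such as those of GABP) and CANNTG (the E-box read by muscle factors such as MyoD), and no 2 of these matches overlap.
Cox6a1: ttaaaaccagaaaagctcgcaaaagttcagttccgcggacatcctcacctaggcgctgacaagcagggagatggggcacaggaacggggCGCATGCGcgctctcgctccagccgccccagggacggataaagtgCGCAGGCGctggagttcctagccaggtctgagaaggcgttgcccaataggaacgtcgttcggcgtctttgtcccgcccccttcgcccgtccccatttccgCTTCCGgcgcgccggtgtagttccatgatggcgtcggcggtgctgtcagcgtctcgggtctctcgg
Cox8a: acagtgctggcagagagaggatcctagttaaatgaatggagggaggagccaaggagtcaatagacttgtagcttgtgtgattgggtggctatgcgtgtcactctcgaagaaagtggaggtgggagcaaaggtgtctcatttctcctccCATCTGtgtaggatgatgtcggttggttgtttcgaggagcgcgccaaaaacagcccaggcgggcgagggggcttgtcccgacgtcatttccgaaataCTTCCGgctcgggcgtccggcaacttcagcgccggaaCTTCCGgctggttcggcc
Cox7a1: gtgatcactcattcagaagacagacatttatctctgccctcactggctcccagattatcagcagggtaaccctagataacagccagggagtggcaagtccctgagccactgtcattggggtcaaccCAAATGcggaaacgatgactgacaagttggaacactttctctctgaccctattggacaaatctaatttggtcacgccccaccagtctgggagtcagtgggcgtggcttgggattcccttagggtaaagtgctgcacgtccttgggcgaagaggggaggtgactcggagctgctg
Cox8b: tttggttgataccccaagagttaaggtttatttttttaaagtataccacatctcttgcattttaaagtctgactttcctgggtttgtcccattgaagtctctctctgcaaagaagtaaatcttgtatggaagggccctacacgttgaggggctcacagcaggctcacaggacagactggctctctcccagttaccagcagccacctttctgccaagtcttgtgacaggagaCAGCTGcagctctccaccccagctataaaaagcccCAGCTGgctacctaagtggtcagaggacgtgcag

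The Cox6a1 promoter held 2 NRF-1 matches, 1 ETS core and 0 E-boxes, and had 32 CpG dinucleotides and a GC content of 63.0%. Cox8a held 2 ETS cores and 1 E-box, with 19 CpG dinucleotides. For the muscle forms Cox7a1 and Cox8b these NRF-1 and ETS letters were not found in the window, and Cox6a2 could not be searched. Cox7a1 had 1 E-box and 7 CpG dinucleotides. Cox8b had 2 E-boxes, 2 CpG dinucleotides and the letters TATAAA at position 5 after the start. Cox7a2, the common partner of Cox7a1, had 0 NRF-1 matches, 1 ETS core, 1 E-box and 20 CpG dinucleotides. The absence of these letters was not particular to muscle forms. Cox7a2l had 0 NRF-1 matches, 0 ETS cores and 19 CpG dinucleotides, and the testis form Cox6b2 had 0 of both matches. Cox6b1, a common form, had 0 NRF-1 matches and 2 ETS cores. NRF-1 is a nuclear factor known to act on many respiratory chain genes. Of the set, 64 genes with 69 promoters had an entry. The NRF-1 letters were in 37.7% of these 69 and in 8.21% of all 32851 mouse promoters of that length, and the ETS core in 39.1% and 16.9%. The median GC content was 57.7% in the promoters of the set and 52.7% in all, and a GC-rich word is met more often in GC-rich sequence. All words were searched on both strands and chosen after the values were seen. The others gave these shares of the set and of all promoters: CANNTG in 69.6% and 72.3%, CCAAT in 40.6% and 37.4%, TATAAA in 10.1% and 13.6%, TNAAGGTCA (the site of oestrogen-related receptors) in 4.35% and 1.28%, and TANNNNTA (the centre of the MEF2 site, a loose match) in 21.7% and 37.3%. A match describes letters in this window and does not show binding.

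Complex I, the NADH dehydrogenase, had 35 genes, all measured. Their median was -0.02 in swimming against nonswimming, 0.29 in Chlorella against normal food, where 34 of 35 were positive, and 0.30 in Chlorella-fed swimming against nonswimming, where 27 of 35 were. Of all genes, 9293 of 15514 were positive in Chlorella against normal food and 8386 of 15342 in Chlorella-fed swimming against nonswimming. Ndufa8, an accessory subunit, had 55.7 on the Chlorella array, 44.8 on the swimming array with normal food and 81.4 on the nonswimming array. It was the lowest of the set in swimming against nonswimming, at -0.86 ± 0.20, and had 0.32 in Chlorella against normal food and -0.55 in Chlorella-fed swimming against nonswimming. A further probe that the files describe as Ndufa8, but name by its transcript, had ratios of -0.46 for swimming, 0.35 for Chlorella and -0.11 for both.

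Ndufb5, an accessory subunit of the membrane arm, had 9.74 on the Chlorella array, 13.5 on the swimming array with normal food and 19.0 on the nonswimming array. It was lower on each swimming array than on the nonswimming one, with ratios of -0.49 for swimming and -0.96 for both, and the only complex I gene below 0 in Chlorella against normal food, at -0.47 ± 0.20. Ndufa2, an accessory subunit of the matrix arm, had 94.4 on the Chlorella array, 78.5 on the swimming array with normal food and 62.5 on the nonswimming array, and ratios of 0.33 for swimming, 0.27 for Chlorella and 0.59 for both. Ndufa9, which lies at the joint of both arms, had 129 on the Chlorella array, 101 on the swimming array with normal food and 132 on the nonswimming array and ratios of -0.39 for swimming, 0.36 for Chlorella and -0.03 for both. Ndufa13, also known as the cell death regulator GRIM-19, had 449 on the Chlorella array, 350.4 on the swimming array with normal food and 358 on the nonswimming array and ratios of -0.03 for swimming, 0.36 for Chlorella and 0.33 for both.

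The subunits that carry out electron transfer in complex I were set apart from the accessory ones, a split made after the values were seen. The 7 nuclear core genes had a median of -0.14 in swimming against nonswimming, 0.19 in Chlorella against normal food and -0.01 in Chlorella-fed swimming against nonswimming. The 28 accessory genes had medians of -0.02 for swimming, 0.30 for Chlorella and 0.30 for both. Ndufv1, which binds NADH, had 201 on the Chlorella array, 173 on the swimming array with normal food and 221 on the nonswimming array and ratios of -0.36 for swimming, 0.22 for Chlorella and -0.14 for both. Ndufs1, the largest iron-sulfur subunit, had 133 on the Chlorella array, 116 on the swimming array with normal food and 139.7 on the nonswimming array and ratios of -0.27 for swimming, 0.19 for Chlorella and -0.07 for both. Both swimming arrays were below the nonswimming one for Ndufv1 and Ndufs1, the Chlorella array by less than the scanner error. Ndufs3, Ndufs7 and Ndufs8 had ratios of 0.07, 0.02 and 0.03 in swimming against nonswimming.

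**Figure D3:**
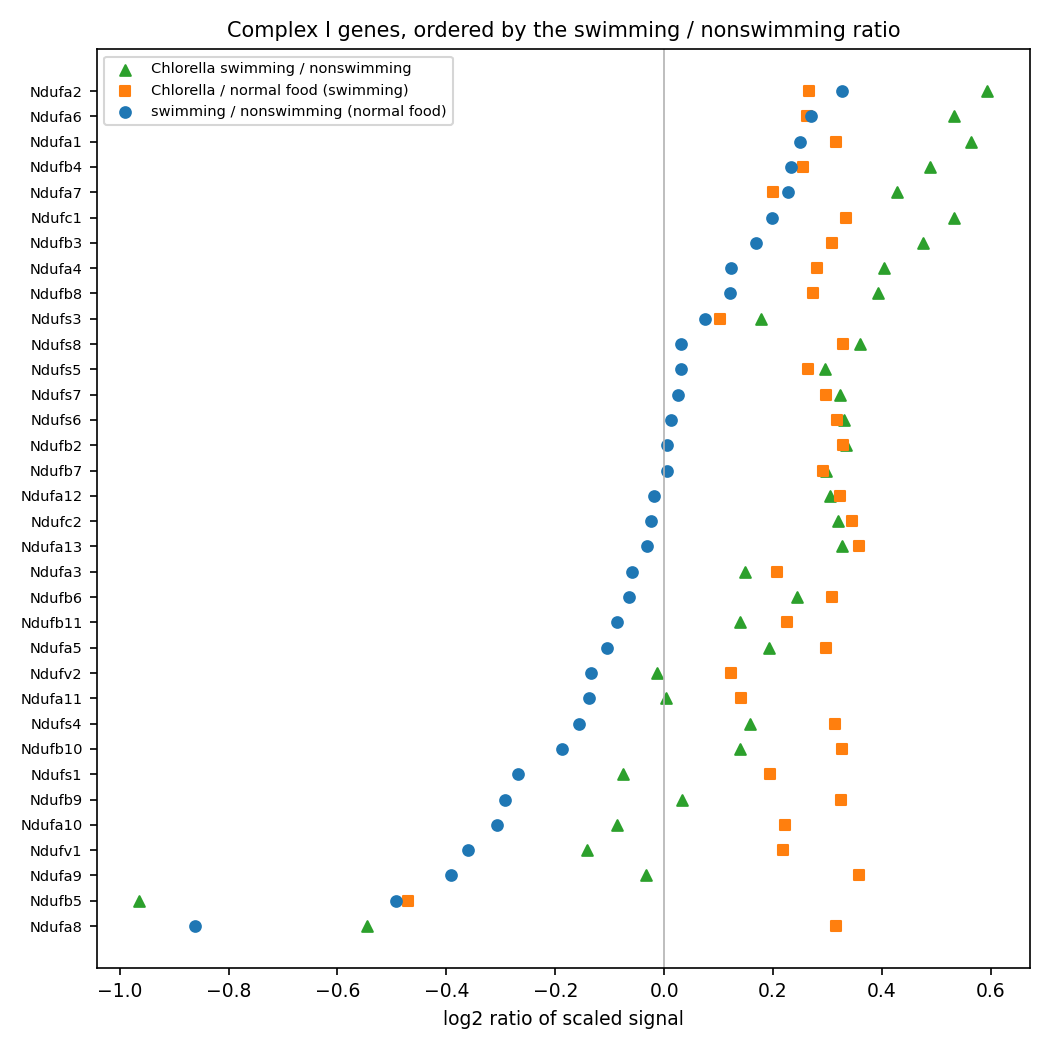
The log2 ratio of scaled signal (x axis) of complex I genes (y axis), with Chlorella-fed swimming against nonswimming as green triangles, Chlorella against normal food as orange squares, and swimming against nonswimming as blue circles. The orange squares form a narrow column near 0.29 with Ndufb5 at -0.47 apart, while the blue circles run from 0.33 for Ndufa2 to -0.86 for Ndufa8.

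Complex II, succinate dehydrogenase, is the only complex with no mitochondrially encoded subunit and is also an enzyme of the citric acid cycle. Its 4 genes had medians of -0.23 in swimming against nonswimming, 0.15 in Chlorella against normal food and -0.08 in Chlorella-fed swimming against nonswimming. Sdha, the flavoprotein that oxidises succinate, had 30.8 on the Chlorella array, 30.8 on the swimming array with normal food and 37.6 on the nonswimming array, so both swimming arrays were alike and below the third. Sdha had ratios of -0.28 for swimming, 0.00 for Chlorella and -0.29 for both. Sdhc, a membrane anchor, had 45.2 on the Chlorella array, 38.9 on the swimming array with normal food and 53.9 on the nonswimming array, with ratios of -0.47 for swimming, 0.21 for Chlorella and -0.25 for both. Sdhb, the iron-sulfur subunit, had 120.4 on the Chlorella array, 100.2 on the swimming array with normal food and 113 on the nonswimming array and ratios of -0.18 for swimming, 0.27 for Chlorella and 0.09 for both, and Sdhd, the other anchor, had 79.1 on the Chlorella array, 74.4 on the swimming array with normal food and 74.0 on the nonswimming array and ratios of 0.01 for swimming, 0.09 for Chlorella and 0.10 for both.

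Complex III, the cytochrome bc1 complex, had 6 genes with medians of -0.15 for swimming, 0.33 for Chlorella and 0.04 for both. Uqcrc1, a core protein of its matrix part, had 289 on the Chlorella array, 217 on the swimming array with normal food and 323 on the nonswimming array. Its swimming array with normal food was the low one: the ratio was -0.57 ± 0.20 in swimming against nonswimming, 0.41 ± 0.20 in Chlorella against normal food, the highest of the whole set there, and -0.16 ± 0.20 in Chlorella-fed swimming against nonswimming. Uqcrc2, the other core protein, had 166 on the Chlorella array, 150.2 on the swimming array with normal food and 174 on the nonswimming array and ratios of -0.21 for swimming, 0.14 for Chlorella and -0.07 for both. Uqcrfs1, the Rieske iron-sulfur protein, had 99.2 on the Chlorella array, 81.5 on the swimming array with normal food and 92.6 on the nonswimming array and ratios of -0.19 for swimming, 0.28 for Chlorella and 0.10 for both. These 3 were all below the nonswimming array in swimming mice on normal food, by amounts that for Uqcrc2 and Uqcrfs1 were no larger than about 1 scanner error. Uqcrb, a small subunit near the ubiquinone site, had 88.2 on the Chlorella array, 68.2 on the swimming array with normal food and 69.7 on the nonswimming array and ratios of -0.03 for swimming, 0.37 for Chlorella and 0.34 for both. Uqcrq had 316 on the Chlorella array, 244 on the swimming array with normal food and 235 on the nonswimming array. Its ratios were 0.05 for swimming, 0.38 for Chlorella and 0.43 for both, the last being the highest of complex III in that comparison.

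Complex V, the ATP synthase, had 15 genes, all measured, with medians of -0.09 in swimming against nonswimming, 0.31 in Chlorella against normal food, where all 15 were positive by their brightest probe, and 0.22 in Chlorella-fed swimming against nonswimming. Of all genes, 9293 of 15514 were positive in Chlorella against normal food. A dimmer probe of Atp5f1 had -0.10 there, and Atp5c1 fell as low as -0.10 under other processing. Atp5a1, the alpha subunit of the catalytic head, had 322 on the Chlorella array, 260.0 on the swimming array with normal food and 398 on the nonswimming array. Atp5b, the beta subunit, which holds the catalytic sites, had 369.9 on the Chlorella array, 287 on the swimming array with normal food and 422 on the nonswimming array. Both were lowest in swimming mice on normal food and highest in nonswimming mice. Atp5a1 had ratios of -0.61 for swimming, 0.31 for Chlorella and -0.31 for both, and its second probe gave -0.31 in swimming against nonswimming and -0.06 in Chlorella-fed swimming against nonswimming. Atp5b had ratios of -0.56 for swimming, 0.36 for Chlorella and -0.19 for both, from its brightest probe. Its other 2 probes gave -0.28 and -0.41 for swimming, 0.13 and 0.03 for Chlorella, and -0.15 and -0.38 for both. Atp5c1, the gamma subunit that turns inside the head, had 487 on the Chlorella array, 407 on the swimming array with normal food and 470.5 on the nonswimming array, with ratios of -0.21 for swimming, 0.26 for Chlorella and 0.05 for both.

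Of the small subunits of the ATP synthase, Atp5e, Atp5l and Atp5k were lowest in nonswimming mice. Atp5e, the epsilon subunit of the central stalk, had 395 on the Chlorella array, 321 on the swimming array with normal food and 254 on the nonswimming array, with ratios of 0.34 ± 0.20 for swimming, 0.30 ± 0.20 for Chlorella and 0.64 ± 0.20 for both. Atp5l, subunit g of the membrane part, had 78.1 on the Chlorella array, 61.5 on the swimming array with normal food and 50.7 on the nonswimming array, with ratios of 0.28 for swimming, 0.35 for Chlorella and 0.62 for both. Atp5k, subunit e beside it, had 76.3 on the Chlorella array, 61.5 on the swimming array with normal food and 57.6 on the nonswimming array and ratios of 0.09 for swimming, 0.31 for Chlorella and 0.41 for both. The order of these 3 was the same on the 3 arrays, highest with Chlorella and lowest in nonswimming mice. For Atp5k the swimming array with normal food differed from the nonswimming one by less than the scanner error. Atp5h, subunit d of the peripheral stalk, had 233 on the Chlorella array, 178 on the swimming array with normal food and 199 on the nonswimming array and ratios of -0.16 for swimming, 0.39 for Chlorella and 0.23 for both.

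Of the 3 genes that encode the same mature c subunit of the proton-driven ring, Atp5g1 had 177 on the Chlorella array, 135 on the swimming array with normal food and 171 on the nonswimming array. It had ratios of -0.34 for swimming, 0.39 for Chlorella and 0.05 for both. Atp5g2 had 125.5 on the Chlorella array, 101 on the swimming array with normal food and 108 on the nonswimming array and ratios of -0.09 for swimming, 0.31 for Chlorella and 0.22 for both, and Atp5g3 had 283 on the Chlorella array, 218 on the swimming array with normal food and 242 on the nonswimming array and ratios of -0.15 for swimming, 0.38 for Chlorella and 0.22 for both. The ratios of these 3 genes in Chlorella against normal food lay within the scanner error of each other, and whether their probes bind each other's transcripts was not tested.

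**Figure D4:**
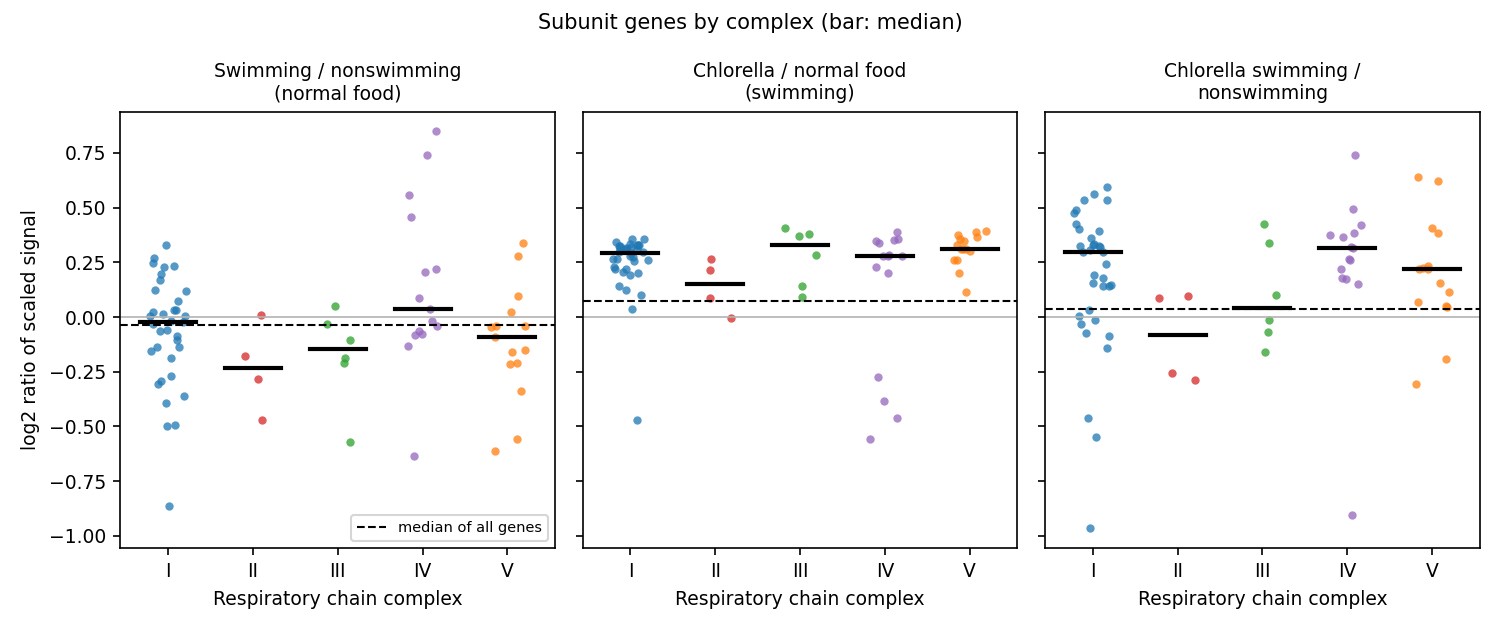
The log2 ratio of scaled signal (y axis) of each measured subunit gene by complex (x axis), 1 panel per comparison, with bars at the medians and a dashed line at the median of all genes. In Chlorella against normal food the medians lie at 0.29, 0.15, 0.33, 0.28 and 0.31 for complexes I to V, all above the dashed line at 0.08, and the low points of complex IV are Cox8a and Cox6a1.

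A list of 12 catalytic and core genes, among them the 4 Sdh genes, Uqcrc1, Atp5a1 and Atp5b, was also summarised. Their median was -0.32 in swimming against nonswimming, 0.24 in Chlorella against normal food and -0.15 in Chlorella-fed swimming against nonswimming. In the first comparison 11 of 12 were negative, against 45 of the 77 genes of the set and 8640 of 15671 genes of the array. The list was drawn up with earlier results of these data known, and its count is a description.

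The transcripts of the set are bright, and bright genes as a class were also higher in Chlorella against normal food. Among genes with a mean signal above the 95th percentile, the 70 of the set had a median of 0.30 and the other 1742 a median of 0.15, while the 13695 dimmer genes had 0.06. In swimming against nonswimming the set's bright genes had -0.04, the other bright genes -0.07 and the dimmer genes -0.03, and in Chlorella-fed swimming against nonswimming these classes had medians of 0.24 (the set), 0.10 (other bright genes) and 0.02 (dimmer genes). This split was made after the values were seen.

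**Figure D5:**
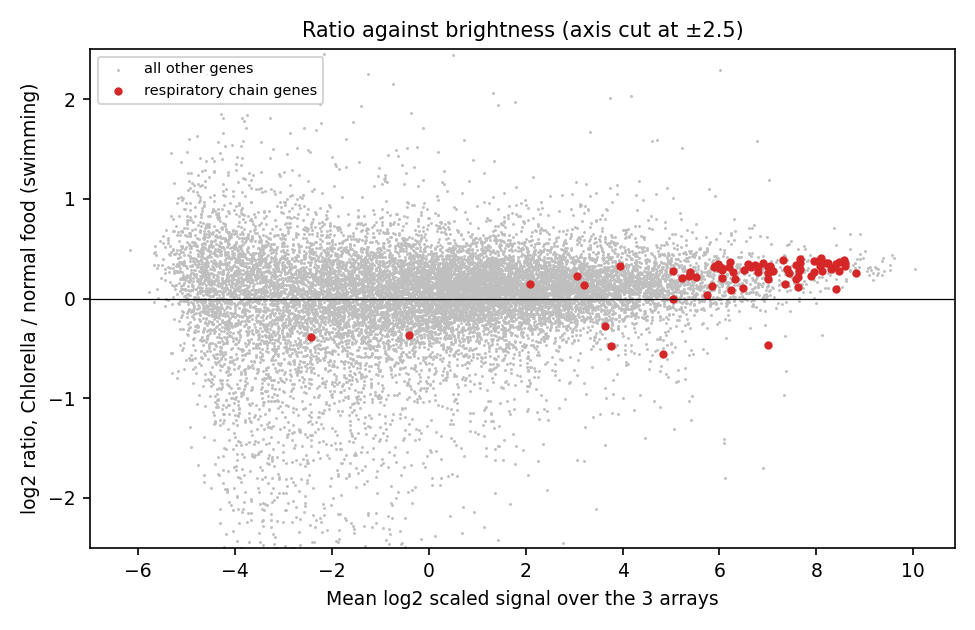
The log2 ratio in Chlorella against normal food (y axis) against the mean log2 scaled signal over the 3 arrays (x axis) for the respiratory chain genes (red) and all other genes (grey). Most red points sit at the bright end in a band around 0.28, with the few below 0 apart.

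Genes that work with the complexes were summarised by list. Of 20 electron carriers, ubiquinone synthesis genes and other associated proteins, 17 were measured, with medians of -0.13 in swimming against nonswimming, 0.14 in Chlorella against normal food and -0.04 in Chlorella-fed swimming against nonswimming, and none passed 1.5-fold. Of 40 assembly factors 39 were measured, with medians of 0.01 for swimming, 0.13 for Chlorella and 0.13 for both. Taco1, a translational activator of the mitochondrial Cox1 mRNA, was the only assembly factor past 1.5-fold. It had 1.21 on the Chlorella array, 0.794 on the swimming array with normal food and 0.759 on the nonswimming array, with ratios of 0.07 for swimming, 0.61 for Chlorella and 0.67 for both.

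Probes for 3 mitochondrially encoded subunits were also on the array. Cytochrome c oxidase subunit I had 251 on the Chlorella array, 191 on the swimming array with normal food and 210.3 on the nonswimming array, with ratios of -0.14 for swimming, 0.39 for Chlorella and 0.25 for both. Cytochrome c oxidase subunit II had 267 on the Chlorella array, 206 on the swimming array with normal food and 202 on the nonswimming array and ratios of 0.03 for swimming, 0.37 for Chlorella and 0.40 for both, and NADH dehydrogenase 4 had 105 on the Chlorella array, 82.5 on the swimming array with normal food and 90.8 on the nonswimming array and ratios of -0.14 for swimming, 0.34 for Chlorella and 0.21 for both. In Chlorella against normal food all 3 lay near the median of complex IV (0.28) or somewhat above it. Uqcr, a complex III subunit that the name rule misses, had 215 on the Chlorella array, 171 on the swimming array with normal food and 152 on the nonswimming array and ratios of 0.17 for swimming, 0.33 for Chlorella and 0.50 for both.

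Fibre genes moved beside these values. Myh7, the slow myosin heavy chain, had 107 on the Chlorella array, 109.7 on the swimming array with normal food and 33.9 on the nonswimming array, with ratios of 1.69 for swimming, -0.04 for Chlorella and 1.66 for both. Myoglobin (Mb), the oxygen store of oxidative fibres, had 505 on the Chlorella array, 323 on the swimming array with normal food and 666 on the nonswimming array and ratios of -1.04 for swimming, 0.65 for Chlorella and -0.40 for both. Slow troponin T (Tnnt1) had 31.8 on the Chlorella array, 41.7 on the swimming array with normal food and 15.7 on the nonswimming array and ratios of 1.41 for swimming, -0.39 for Chlorella and 1.02 for both. Both slow fibre genes were thus higher on the swimming arrays than on the nonswimming one. Myh1, a fast myosin heavy chain, had 396 on the Chlorella array, 243 on the swimming array with normal food and 367 on the nonswimming array and ratios of -0.59 for swimming, 0.70 for Chlorella and 0.11 for both. Myh2, the myosin heavy chain of fast oxidative fibres, had 504 on the Chlorella array, 322 on the swimming array with normal food and 439 on the nonswimming array and ratios of -0.45 for swimming, 0.65 for Chlorella and 0.20 for both. These 5 were the fibre genes past 1.5-fold in at least 1 comparison. Over all 11 the median was -0.11 in swimming against nonswimming (9 negative), 0.29 in Chlorella against normal food (9 positive) and 0.21 in Chlorella-fed swimming against nonswimming (10 positive). Of all genes of the array, 8640 of 15671 were negative in the first, and 9293 of 15514 and 8386 of 15342 positive in the others. The respiratory chain genes had medians of -0.04, 0.28 and 0.22 in these comparisons. The part of fibre make-up in the respiratory chain ratios was not tested.

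Where a gene had several measured probes, they mostly gave like ratios. In swimming against nonswimming, 13 of 19 such genes had probes within 0.2 of each other on the log2 scale, in Chlorella against normal food 14 of 19, and in Chlorella-fed swimming against nonswimming 14 of 20. Probes of opposite sign were met in 3, 4 and 5 of these genes, in the same order of comparisons. The widest gap was 0.66, for Ndufa3 in Chlorella against normal food, where 1 probe had -0.46 and the other 0.21. Cox6a1, Cox6a2, Cox8a, Cox8b and Cox7a2l rested on 1 probe each.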

How the data were processed

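The deposited scanner files hold intensity values written by Agilent Feature Extraction 9.5 (version per the submitters' processing notes), among them a processed signal, background-subtracted within the array, with its error and flags. The value table of the authors gives 13683 spots as log2. Between arrays, its differences matched those of the log2 processed signals to 0.01, after 1 offset per comparison, at 56.4%, 56.6% and 55.8% of spots in swimming against nonswimming, Chlorella against normal food, and Chlorella-fed swimming against nonswimming (r = 0.76, 0.82 and 0.71 across spots). The medians of its columns were 0.010 for Chlorella, -0.005 for swimming with normal food and 0.008 for nonswimming. Its direction and log2 scale follow from this, its centring stays unknown, and its differences served as an alternative. Slide and scan were shared by the 3 arrays, per the file headers.

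Control and flagged spots were left out and spots of a probe averaged. The processed signal was divided by its 75th percentile over the probes of the array and taken to log2. A gene was taken by its brightest unflagged probe and compared where that probe was well above background on both arrays. For want of replicates, genes were counted past log2 ratios of 0.32, 0.58 (1.5-fold) and 1.00 (2-fold). The number of arrays limits the precision: errors are technical, and probes spotted many times had a median SD of 0.058 log2 on the Chlorella array, 0.062 on the swimming array with normal food and 0.066 on the nonswimming array.

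Names came from the files and a RefSeq table of GRCm38.p6, used for names, besides the promoters. Genes named were all isoform sets, in each complex and comparison the 3 genes farthest from the median of all genes, every gene past 1.5-fold, and fixed catalytic subunits. Of companion lists only genes past 1.5-fold were to be named. Marker genes, mitochondrially encoded subunits, Uqcr and the second probe described as Ndufa8 were named outside this rule after their values were seen, as were the complex I genes Ndufa3, Ndufs3, Ndufs7 and Ndufs8 and the complex V gene Atp5f1. One gene of the set is left out of the text and figures by name, since it is withheld for evaluation. The members and lists were chosen with earlier results of these data known.

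The 10 alternatives comprised 3 other normalizations (cyclic loess, quantile, median centring), a percentile taken over bright probes alone, normexp (offset 50), no filter, a filter over all 3 arrays, the mean over probes, the dimmest probe and the authors' table. Normalization used R 4.3.3 with limma 3.58.1, other steps Python 3.11.15 with pandas 2.3.3 and numpy 2.4.6. The ratio steps were tested on simulated data.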

Additional observations from a re-analysis of the deposited data

How the results depend on the processing

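No paired analysis was possible because each group is 1 array and the labels give no replicate numbers, and for the same reason no array could be left out. The median log2 ratio of the respiratory chain genes in swimming against nonswimming was -0.19 with median centring, which also moved the median of all genes to -0.19, against -0.04 as reported. It was 0.04 with quantile normalization, where that of all genes was -0.05, and -0.04 with no filter, where that of all genes was -0.14. In Chlorella against normal food (0.28 as reported) it was 0.0865 with quantile normalization and 0.0837 with cyclic loess. Median centring gave 0.42 there and put the median of all genes at 0.21. The set stood above the median of all genes there under each of the 10 alternatives, by 0.04 with quantile normalization (49 of 77 genes above it, against 69 as reported) up to 0.21 with the filter over all 3 arrays. Median centring and the percentile over probes well above background could not change this gap, since they shift the set and all genes alike. The gap was 0.21 as reported, 0.10 with cyclic loess, 0.13 with normexp, 0.09 with no filter and 0.21 with the authors' table. In Chlorella-fed swimming against nonswimming (0.22) the median of the set was 0.10 with quantile normalization and 0.10 with cyclic loess. Counts past 1.5-fold in swimming against nonswimming (5) were 3 with quantile normalization, 3 with cyclic loess and 10 with median centring, where 2 were higher and 8 lower in place of 2 and 3. In Chlorella against normal food (0) they were 2 with quantile normalization and 3 with cyclic loess. They were 1 each with normexp, no filter, the percentile over probes well above background and the authors' table. In Chlorella-fed swimming against nonswimming (6) the count was 3 with quantile normalization. The cause of these shifts was not tested. Over all alternatives, 90 of 90 isoform differences and 1098 of 1140 single-gene ratios moved by less than the scanner error, and 115 of 150 complex medians by less than the SD between replicated spots, combined over both arrays (0.085 to 0.091). These limits are wide beside the ratios: 0.2 was used for a single gene. The median of the set in Chlorella against normal food fell from 0.28 to 0.0865 with quantile normalization. The counts therefore say little about ratios of that size. Several alternatives could not move an isoform difference. Median centring and the percentile over probes well above background shift a whole array by a constant, which cancels in it. The filters and the choice of probe leave Cox6a1, Cox6a2, Cox8a and Cox8b unchanged, since each has a single probe, well above background on every array. The same holds for the ratio of any other gene with a single probe of this kind. In the authors' table Uqcrq had 0.92 in swimming against nonswimming and -0.45 in Chlorella against normal food, against 0.05 and 0.38 as reported. Atp5b had -0.27 and 0.11 there, against -0.56 and 0.36. What changed these spots in that table is unknown. With 1 pool per group nothing here measures how mice differ.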
